A study of Mus musculus with 12 samples.

Results

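Siglecs are sialic acid-binding lectins of the immunoglobulin superfamily, carried mostly by white blood cells. Each Siglec reads a particular linkage of sialic acid on glycoproteins and glycolipids of its own or of neighbouring cells, and many of them hold inhibitory tyrosine motifs that recruit the phosphatases encoded by Ptpn6 and Ptpn11 and so dampen signals from receptors such as TLR4. On macrophages they are known as brakes on inflammatory activation, as uptake receptors for sialylated particles, and as markers that separate tissue macrophage types. The transcripts of 7 mouse Siglec genes were followed here, namely Siglec1, Siglece, Siglecf, Siglecg, Siglech, Cd33 and Cd22. Members were taken by the gene name of each array probe, with older names matched to the current symbol (Siglec5 for Siglecf). This gave 12 of the 39429 probes, with 2 probes for each of 5 genes and 1 probe for Siglece and for Cd33, and all 7 genes were among the 22978 that entered the test.

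The samples were macrophages grown from mouse bone marrow with GM-CSF, a myeloid growth factor whose marrow cultures also give cells of dendritic type. Bone marrow came from 2 Commd1 knockout mice and 2 Commd1 wildtype mice. COMMD1 is an endosomal sorting protein that is also known to restrain NF-kB. All cultures ran for 10 days with 20 ng/ml GM-CSF, and the cells of each mouse gave 1 sample without lipopolysaccharide (LPS from Escherichia coli, the ligand of TLR4) and 2 with 10 ng/mL of it, for 3 h and for 24 h. That made 6 groups of 2 mice: knockout untreated, knockout 3 h, knockout 24 h, wildtype untreated, wildtype 3 h and wildtype 24 h. The labels give neither the kind of knockout allele nor the age or strain of the mice. With 2 mice per genotype, p-values rest on the spread between 2 arrays in each group.

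Each sample lay on its own single-colour array. Of the spots, 60.1% to 69.5% were well above background on the knockout arrays and 65.5% to 73.0% on the wildtype arrays, and none was saturated. The 4 arrays of each time shared 1 slide, and knockout and wildtype arrays held fixed places on every slide. Time therefore cannot be told apart from slide, nor genotype from array place. The slope of log2 signal on the amount of spiked-in control RNA was 0.794 to 0.799 in knockout and 0.735 to 0.743 in wildtype on the untreated and 3 h slides, and 0.842 to 0.869 in knockout and 0.820 to 0.824 in wildtype at 24 h. Commd1 was lower in knockout cells, with a log2 difference from wildtype of -3.01, -2.92 and -3.05 (SE 0.23 each) in untreated cells and at 3 h and 24 h (limma adjusted p = 0.00165, 0.0229 and 0.0051). Of 11 macrophage markers, 10 were above background on both arrays of every group, Cd163 being the exception.

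Levels are given as the log2 processed signal minus the array's 75th percentile over its probes, and changes as differences of these levels in limma, with p-values adjusted by Benjamini-Hochberg over all genes at a threshold of 0.05. Levels of different probes are not on a common scale and are compared only within a probe. In bulk RNA, fewer cells of a type and less RNA per cell cannot be told apart.

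After 24 h of LPS, the same 5 of the 7 Siglec genes had changed in the same directions in both genotypes: Siglec1, Siglece and Cd22 rose, and Siglecf and Cd33 fell. In knockout cells these 3 higher and 2 lower members stood against 26.0% of all genes higher and 31.5% lower. In wildtype cells they stood against 23.6% of all genes higher and 26.4% lower. Beside those shares the counts show nothing particular to the family. After 3 h, 3 members were higher and 1 lower in knockout cells, against 26.4% and 25.7% of all genes, and 1 was higher and 1 lower in wildtype cells, against 23.2% and 23.4%. At 24 h against 3 h, 3 were higher and 3 lower in knockout cells, against 26.3% and 32.6% of all genes, and 3 were higher and 2 lower in wildtype cells, against 25.7% and 26.9%. The median change of the 7 members at 24 h was 0.10 in knockout and 0.31 in wildtype, against -0.07 and -0.04 over all genes. The comparisons with untreated cells share their untreated arrays within a genotype.

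**Figure D1:**
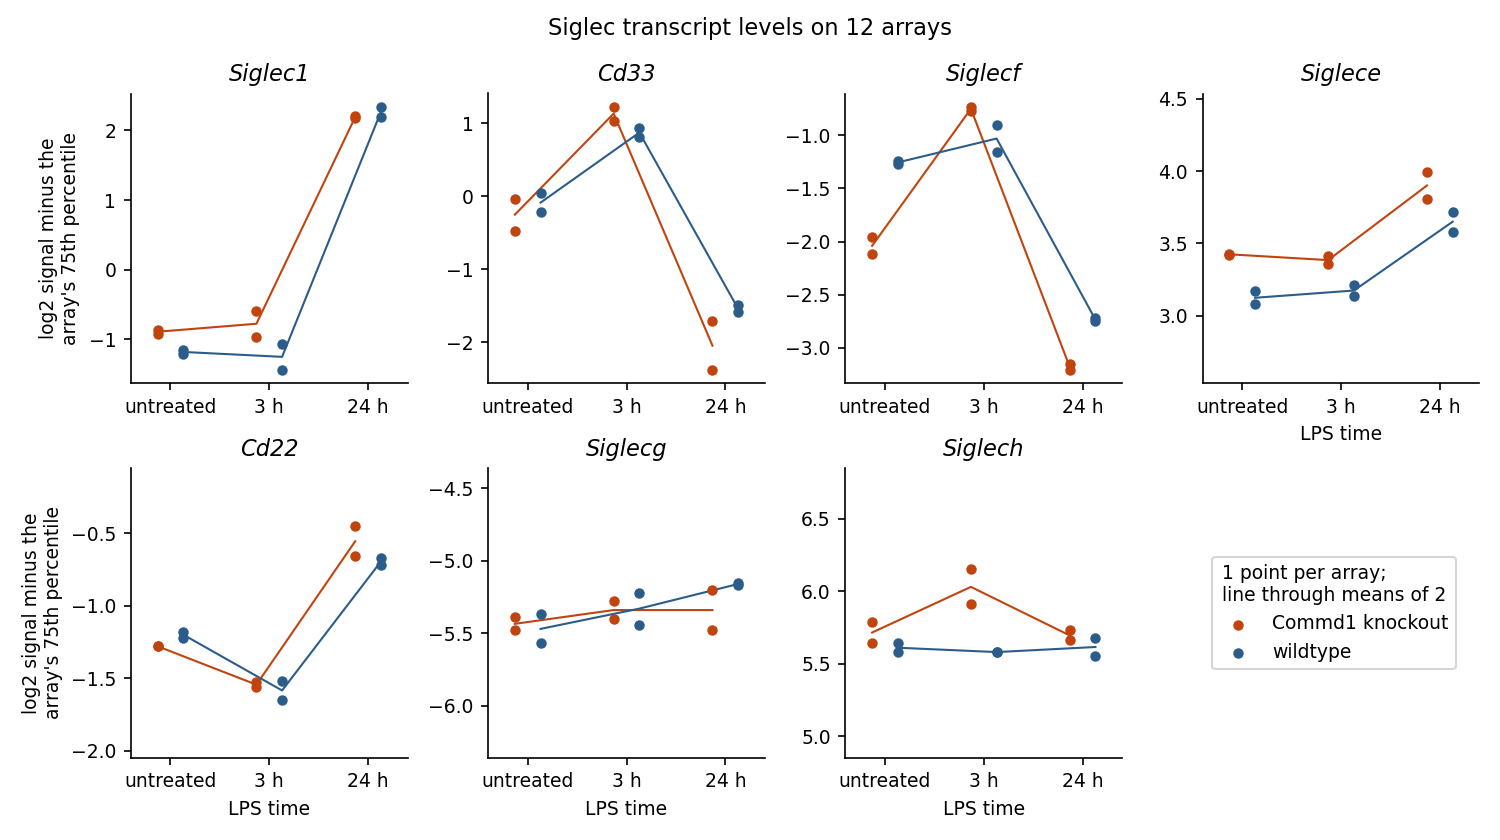
Levels of the 7 Siglec genes (vertical axis, log2 processed signal minus the array's 75th percentile, a separate range per gene) in untreated cells and after 3 h and 24 h of LPS (horizontal axis). Each point is 1 array, knockout left of wildtype, and lines join the means of 2 mice. Siglec1 climbs between 3 h and 24 h to 2.18 and 2.20 in knockout and 2.19 and 2.34 in wildtype. Cd33 in both genotypes and Siglecf in knockout peak at 3 h, and both genes are lowest at 24 h. The wildtype 3 h change of Siglecf, 0.22, did not pass the threshold.

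Siglec1 encodes sialoadhesin, a long Siglec without an inhibitory motif that binds sialylated cells and virus particles and is a well-known interferon-inducible gene of macrophages. Its brighter probe (mm9 chr2:130895093-130895152, minus strand, base 6190 of the transcript) read -0.86 and -0.92 in untreated knockout cells, -0.59 and -0.96 at 3 h and 2.18 and 2.20 at 24 h. In wildtype cells it read -1.21 and -1.15 untreated, -1.44 and -1.06 at 3 h and 2.19 and 2.34 at 24 h. The 24 h arrays of both genotypes thus stood far above all others, while 3 h and untreated arrays overlapped in knockout and in wildtype. The increase at 24 h over untreated was 3.08 ± 0.15 log2 units in knockout (SE, n = 2 per group, 8.43-fold, limma adjusted p = 1.2e-06) and 3.45 ± 0.15 in wildtype (10.9-fold, limma adjusted p = 8.3e-07). At 3 h the change was 0.11 ± 0.15 in knockout (limma adjusted p = 0.559) and -0.07 ± 0.15 in wildtype (limma adjusted p = 0.728).

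A dimmer Siglec1 probe further upstream (chr2:130909693-130909752, base 1417 of the transcript) gave smaller changes with the same late rise. At 24 h it was 1.78 ± 0.13 above untreated in knockout and 2.06 ± 0.13 in wildtype (limma adjusted p = 7.6e-06 and 5.17e-06). Unlike the brighter probe it was also past the threshold at 3 h, by 0.59 ± 0.13 in knockout (limma adjusted p = 0.00391) and 0.42 ± 0.13 in wildtype (limma adjusted p = 0.0247). The probes therefore differ on whether Siglec1 moved at 3 h, and both put most of its rise after 3 h. The 24 h response did not differ detectably by genotype at the brighter probe, where knockout minus wildtype was -0.37 (95% interval -0.87 to 0.13, limma adjusted p = 0.474).

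Genes of the type I interferon pathway, to which Siglec1 responds in other settings, were mostly higher after LPS too, and most of them already at 3 h. Of 24 measured, 22 were higher at 3 h in knockout and 22 in wildtype, against 26.4% and 23.2% of all genes, and none was lower. At 24 h 20 were higher in knockout (median 3.21, against -0.07 over all genes) and 21 in wildtype (median 3.20, against -0.04). Of all genes, 26.0% were higher at 24 h in knockout and 23.6% in wildtype. Ifnb1, the interferon beta gene, was not well above background in any untreated array and was at least 419-fold higher at 24 h in knockout and at least 322-fold higher in wildtype. Such a bound sets the bright group's mean against the lowest signal that counted as above background on the dim arrays. Irf7, the interferon-induced factor that amplifies the response, was 6.32 higher at 24 h in knockout and 7.38 higher in wildtype. Most of the pathway had therefore risen by 3 h, whereas Siglec1's brighter probe had not.

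Cd33 encodes a Siglec of myeloid cells, and its single probe (mm9 chr7:50783849-50783908, minus strand) showed a rise followed by a fall. In knockout cells it read -0.47 and -0.03 untreated, 1.23 and 1.04 at 3 h and -2.38 and -1.71 at 24 h. In wildtype cells it read -0.22 and 0.05 untreated, 0.81 and 0.94 at 3 h and -1.59 and -1.49 at 24 h. Within each genotype the 3 times did not overlap. The 3 h change was 1.38 ± 0.23 in knockout (2.61-fold higher, limma adjusted p = 0.001) and 0.96 ± 0.23 in wildtype (1.94-fold higher, limma adjusted p = 0.00858). The wildtype call at 3 h was lost without wildtype 3 h replicate 2 (adjusted p = 0.0517) and without wildtype untreated replicate 1 (adjusted p = 0.0589). At 24 h the change from untreated was -1.79 ± 0.23 in knockout (3.47-fold lower, limma adjusted p = 0.000217) and -1.45 ± 0.23 in wildtype (2.74-fold lower, limma adjusted p = 0.000958). The difference of 24 h against 3 h was -3.17 in knockout, or 9.03-fold, and -2.41 in wildtype, or 5.33-fold.

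Siglecf encodes the inhibitory receptor best known from mouse eosinophils and lung alveolar macrophages, and it also was lowest at 24 h. Its brighter probe (mm9 chr7:50614768-50614827, plus strand, base 2373 of the transcript) read -2.12 and -1.96 in untreated knockout cells, -0.77 and -0.73 at 3 h and -3.21 and -3.15 at 24 h. In wildtype cells it read -1.27 and -1.24 untreated, -0.90 and -1.16 at 3 h and -2.75 and -2.72 at 24 h. The knockout arrays lay below the wildtype arrays without LPS and at 24 h, and above them at 3 h, with no overlap at any time. Siglecf rose at 3 h by 1.29 ± 0.10 in knockout (2.45-fold, limma adjusted p = 1.35e-05), against 0.22 ± 0.10 in wildtype (limma adjusted p = 0.114). The wildtype value passed the threshold without wildtype 3 h replicate 2, at 0.36 with adjusted p = 0.0439. At 24 h the change from untreated was -1.13 ± 0.10 in knockout (2.19-fold lower, limma adjusted p = 3.52e-05) and -1.48 ± 0.10 in wildtype (2.79-fold lower, limma adjusted p = 1.19e-05).

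The dimmer Siglecf probe (chr7:50611746-50611805, base 1497 of the transcript) moved the same way where it changed. It rose by 1.07 ± 0.20 at 3 h in knockout (limma adjusted p = 0.00186), and its wildtype difference at 3 h was 0.00 ± 0.20. At 24 h it was not well above background on either knockout array, which makes it at least 1.79-fold lower than in untreated knockout cells, and in wildtype it changed by -0.86 ± 0.20 (limma adjusted p = 0.00696). Both Siglecf probes thus recorded the early rise in knockout and the late fall in both genotypes.

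Siglecf and Cd33 lie in the Siglec cluster of mouse chromosome 7, as do Siglecg and Siglece, which were not called lower at 24 h. Siglecf and Cd33 were the members that fell at 24 h, so their upstream sequences are shown. The sequences, from RefSeq on GRCm38.p6, are the 250 bases before each annotated start, and the capitals mark the longest run of bases that the 2 share. The comparison was made after the values were seen. Cd33 lies at chr7:43533172-43533421 on the minus strand and Siglecf at chr7:43351091-43351340 on the plus strand.
Cd33: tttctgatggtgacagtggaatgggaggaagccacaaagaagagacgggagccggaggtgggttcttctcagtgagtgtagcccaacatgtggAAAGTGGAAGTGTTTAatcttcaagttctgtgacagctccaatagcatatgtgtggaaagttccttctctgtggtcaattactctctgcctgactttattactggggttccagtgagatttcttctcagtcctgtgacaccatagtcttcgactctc
Siglecf: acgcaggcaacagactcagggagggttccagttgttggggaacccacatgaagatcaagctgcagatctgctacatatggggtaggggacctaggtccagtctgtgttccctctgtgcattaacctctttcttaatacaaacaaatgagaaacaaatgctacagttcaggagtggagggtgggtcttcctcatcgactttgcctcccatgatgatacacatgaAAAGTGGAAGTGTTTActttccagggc
The shared run is 16 bases long and ends 142 bases before the start of Cd33 and 12 bases before the start of Siglecf. It occurs in 2 of the 32851 upstream sequences of the table, which are these 2. The run was picked from these 2, so their own matches were fixed in advance. The table holds 6 of the 7 members, all but Siglec1, and the other pairs among the 6 share runs of 7 to 10 bases.

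A search of the same 250 bases on both strands gave few matches to motifs of LPS and myeloid regulators. The core GAGGAA of PU.1, the master factor of myeloid cells, was found in Cd33, Siglece, Siglecf and Siglecg, 4 of the 6 members in the table, and in 23.3% of all upstream sequences. The NF-kB pattern GGGANNNCC was found in no member and in 15.8% of all, and its form with a longer spacer in Siglece alone and in 17.6% of all. The STAT pattern TTCNNNGAA was found in Siglech alone and in 7.02% of all. The core of the interferon-stimulated response element was found in none of the 6 and in 2.98% of all. No match overlapped another or the shared run of Cd33 and Siglecf, and a match is a description of letters only. Only these patterns were searched, so other forms of such sites, in the shared run too, were not looked for.

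Siglece encodes an inhibitory Siglec of neutrophils, monocytes and macrophages that recruits the phosphatases named above. Its probe (mm9 chr7:50906669-50906728, minus strand) read 3.42 and 3.43 in untreated knockout cells, 3.36 and 3.41 at 3 h and 3.99 and 3.81 at 24 h. In wildtype cells it read 3.08 and 3.17 untreated, 3.14 and 3.21 at 3 h and 3.58 and 3.72 at 24 h. The 24 h arrays were above the earlier ones in each genotype, by amounts far smaller than for Siglec1. Siglece rose by 0.48 ± 0.09 at 24 h in knockout (1.39-fold, limma adjusted p = 0.00237) and by 0.53 ± 0.09 in wildtype (1.44-fold, limma adjusted p = 0.00179). Both calls were lost when signals were rescaled by the spike-in slopes, which gave 0.25 in knockout (adjusted p = 0.094) and 0.22 in wildtype (adjusted p = 0.141). The 3 h changes were -0.04 in knockout and 0.05 in wildtype (limma adjusted p = 0.749 and 0.683).

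Cd22 encodes the B-cell Siglec that binds sialic acid attached by ST6GAL1 and restrains the B-cell receptor. Its brighter probe (mm9 chr7:31651249-31651308, minus strand, base 3211 of the transcript) read -1.28 on both untreated knockout arrays, -1.53 and -1.56 at 3 h and -0.45 and -0.66 at 24 h. In wildtype cells it read -1.22 and -1.18 untreated, -1.65 and -1.52 at 3 h and -0.72 and -0.67 at 24 h. The arrays of the 3 times did not overlap in either genotype. At 24 h Cd22 rose by 0.72 ± 0.09 in knockout (1.65-fold, limma adjusted p = 0.000235) and by 0.51 ± 0.09 in wildtype (1.42-fold, limma adjusted p = 0.00218). At 3 h this probe changed by -0.26 ± 0.09 in knockout (limma adjusted p = 0.0429) and by -0.38 ± 0.09 in wildtype (limma adjusted p = 0.00947). The knockout call at 3 h was lost on leaving out any of its 4 arrays (adjusted p = 0.0906 to 0.131), and the wildtype call without wildtype 3 h replicate 1 (adjusted p = 0.0745).

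The second Cd22 probe (chr7:31665113-31665172, base 189 of its transcript) disagreed at 3 h. It was higher by 0.47 ± 0.16 in knockout (limma adjusted p = 0.0397), with 0.34 ± 0.16 in wildtype (limma adjusted p = 0.117), so the direction of Cd22 at 3 h depends on the probe. At 24 h it was higher by 0.53 ± 0.16 in knockout (limma adjusted p = 0.0219), with 0.44 ± 0.16 in wildtype (limma adjusted p = 0.0527), the direction of the brighter probe. Cd22 is also a B-cell marker, and of 11 B-cell markers, Cd22 included, 6 were above background on both arrays at 24 h and 7 untreated in knockout, and 9 at both times in wildtype. The log2 of their summed signal was 0.58 on both arrays at 24 h and 1.09 to 1.14 untreated in knockout, and 0.29 to 0.32 at 24 h and 0.38 to 0.46 untreated in wildtype. Ebf1, a defining factor of B cells, was above background on no array of any group. Cd79b, a chain of the B-cell receptor and the brightest of the list in untreated cells, changed by -1.34 ± 0.16 in knockout and -0.77 ± 0.16 in wildtype at 24 h. It weighs most in the untreated sum. At 24 h Cd22 itself weighs most, at -0.56 against -0.68 for Cd79b in knockout and -0.69 against -1.2 in wildtype. The 24 h sum is therefore partly Cd22 itself. Of 10 measured markers, 3 were higher at 24 h in knockout, Cd22 among them, and 4 lower, and in wildtype 3 were higher and 2 lower. The shares of all genes were 26.0% higher and 31.5% lower in knockout, and 23.6% and 26.4% in wildtype. Ms4a1, which encodes CD20, was at least 4.65-fold higher in knockout and 2.33 ± 0.69 log2 units higher in wildtype, where 1 of 2 untreated arrays was above background. The B-cell markers thus moved in both directions at 24 h, with counts near the shares of all genes. Their part in the Cd22 change was not tested.

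**Figure D2:**
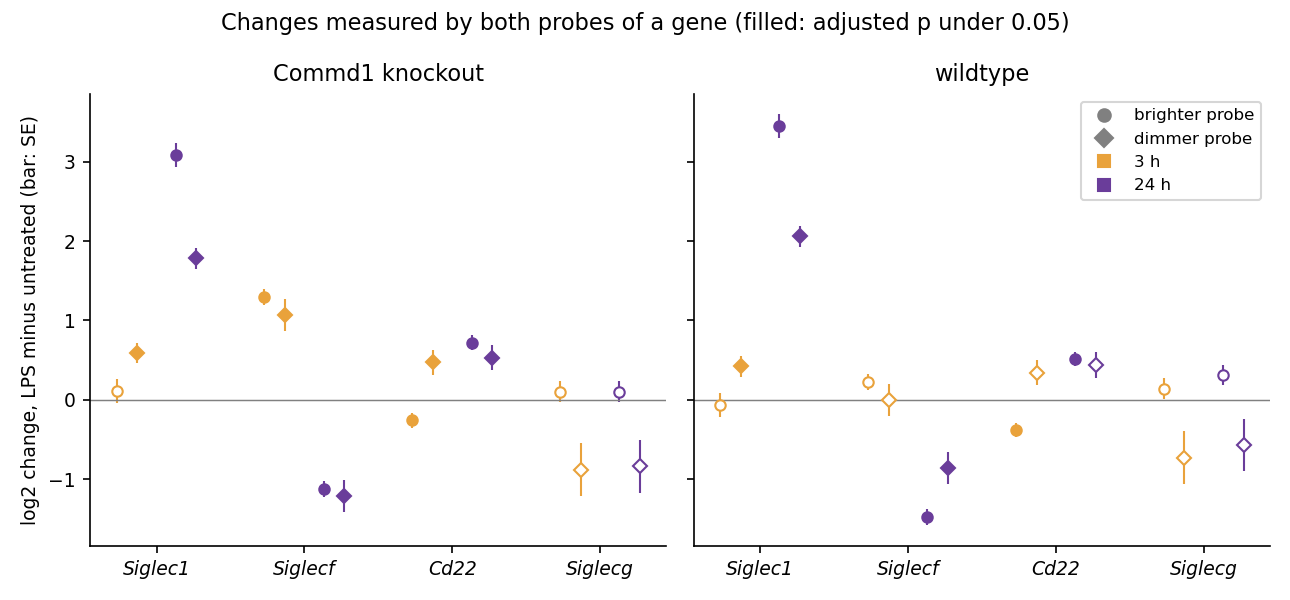
Log2 change from untreated after 3 h (orange) and 24 h (purple) of LPS for both probes of Siglec1, Siglecf, Cd22 and Siglecg, knockout on the left and wildtype on the right. Circles are the brighter and diamonds the dimmer probe, bars are SE, and filled symbols have a limma adjusted p under 0.05. The probes of Siglec1 and Siglecf point the same way at 24 h (the dimmer Siglecf and Siglecg probes were not well above background there in knockout), those of Cd22 point opposite ways at 3 h, and those of Siglecg differ in sign at both times with no call.

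The brighter probes of Cd22 and Siglech hold simple or repeated sequence, so the stretch concerned is printed for each, from base 8 to base 37 of the Cd22 probe and from base 17 to base 46 of the Siglech probe. Capitals mark the repeated stretch, CCAACCAACCAA and its continuation in Cd22 and CAGAGAAACNCTGTCTC in Siglech. Both patterns were chosen after the probes were read.
Cd22: gaaaaaCCAACCAACCAACCAAacaaaaaa
Siglech: ctacaCAGAGAAACTCTGTCTCaaagaaag
The Siglech pattern resembles the end of the mouse B1 element, a short repeat scattered through genes and transcripts. It was found on either strand in 8 of the 39429 probes, and all 8 were well above background on all 12 arrays, against 55.8% of all probes. The Cd22 pattern was found in 11 probes, of which 10 were well above background on all arrays.

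Siglech is the Siglec by which mouse plasmacytoid dendritic cells are recognised, and it signals through the adaptor encoded by Tyrobp. The brighter probe (mm9 chr7:63034088-63034147, plus strand, base 2281 of the transcript) read 5.79 and 5.64 in untreated knockout cells, 6.15 and 5.91 at 3 h and 5.73 and 5.66 at 24 h. In wildtype cells it read 5.64 and 5.58 untreated, 5.58 on both arrays at 3 h and 5.55 and 5.68 at 24 h. The knockout 3 h arrays were the highest, and within wildtype the 3 times overlapped or touched. The 3 h change in knockout was 0.32 ± 0.11 (limma adjusted p = 0.0337), with -0.02 ± 0.11 in wildtype (adjusted p = 0.871), and 24 h against 3 h was -0.34 ± 0.11 in knockout (limma adjusted p = 0.0232). The first of these calls was lost without knockout 3 h replicate 1 (adjusted p = 0.187) or knockout untreated replicate 2 (adjusted p = 0.181), it did not pass with the percentile over probes detected on all arrays (0.17, adjusted p = 0.215), and under quantile normalization its value was -0.01. The second was lost without knockout 3 h replicate 1 (adjusted p = 0.136) or knockout 24 h replicate 2 (adjusted p = 0.0845). At 24 h the change from untreated was -0.02 in knockout and 0.01 in wildtype, but -0.53 and -0.75 after spike-in rescaling (adjusted p = 0.012 and 0.002), so the direction at 24 h depends on the scaling.

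The other Siglech probe (chr7:63033826-63033885, base 2019 of the transcript) was well above background on 1 of 12 arrays, untreated knockout replicate 1, and did not enter the test. The 2 probes, which lie close together at the end of the same transcript, therefore differ on whether Siglech RNA was measurable. Of 11 plasmacytoid dendritic cell markers, Siglech included, 8 to 10 were above background on both arrays of each group, and Spib was above background on none. That list also holds genes that macrophages express, such as Bst2 and Irf8.

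Siglecg encodes an inhibitory Siglec of B cells that pairs with CD24. Its brighter probe (mm9 chr7:50668051-50673194, plus strand, spanning an intron) lay between -5.48 and -5.20 on the knockout arrays and between -5.57 and -5.15 on the wildtype arrays, a narrow range in which the 2 wildtype 24 h arrays (-5.17 and -5.15) were the highest. None of its changes with LPS passed the threshold: at 24 h it was 0.10 ± 0.13 in knockout (limma adjusted p = 0.54) and 0.31 ± 0.13 in wildtype (limma adjusted p = 0.0751). After spike-in rescaling the 24 h values were 0.60 in knockout (adjusted p = 0.0105) and 1.12 in wildtype (adjusted p = 0.000376), and after normexp correction 0.38 and 0.43 (adjusted p = 0.00316 and 0.00206). The second probe (chr7:50667115-50667174) was above background on 9 arrays and on neither knockout array at 24 h, where it was at least 1.36-fold lower than untreated (limma adjusted p = 0.0572). In wildtype its 24 h change was -0.57 ± 0.33 (limma adjusted p = 0.186). A direction for Siglecg cannot be given from these probes.

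**Figure D3:**
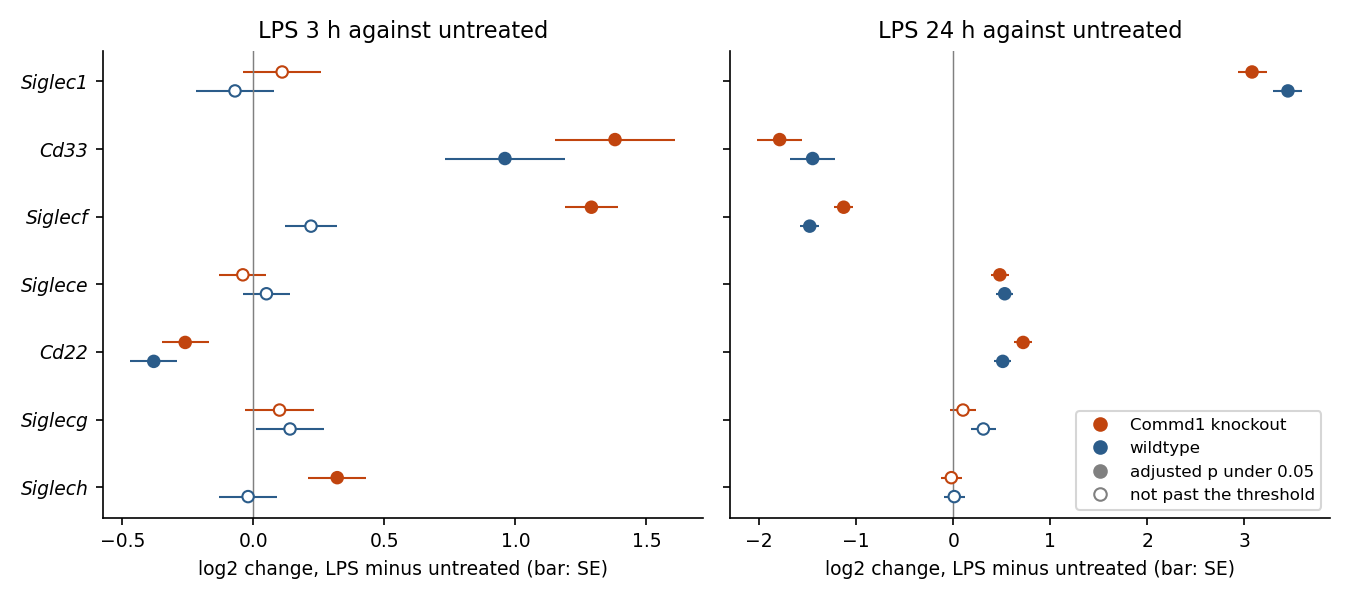
Log2 change from untreated after 3 h (left) and 24 h (right) of LPS for the brighter probe of each gene, knockout above wildtype. Bars are SE, filled symbols have a limma adjusted p under 0.05, and the 2 panels have different ranges. At 3 h Siglecf stands at 1.29 in knockout and 0.22 in wildtype, and at 24 h Siglec1 stands apart at 3.08 in knockout and 3.45 in wildtype.

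Knockout was then compared with wildtype at each time, within 1 slide. In untreated cells 1 of the 7 members differed, against 6.84% of all genes, and it was Siglecf, lower in knockout with a difference of -0.79 ± 0.10 (1.73-fold, 95% interval -1.03 to -0.55, limma adjusted p = 0.00928). The call was lost without knockout untreated replicate 1 (-0.71, adjusted p = 0.0741), without wildtype untreated replicate 2 (-0.78, adjusted p = 0.0568), and when only the 2 untreated groups were fitted (adjusted p = 0.114). At 3 h and at 24 h no member passed, against 1.68% and 2.39% of all genes, with 3 and 2 members at an unadjusted p under 0.05 in limma. At that unadjusted level there were 5592 of 22978 genes at 3 h and 4986 of 22976 at 24 h. At 24 h Siglecf had -0.44 ± 0.10 at the brighter probe (limma adjusted p = 0.0663) and at 3 h 0.28 ± 0.10 at the brighter one (limma adjusted p = 0.156). The brighter probe passed at 24 h with the percentile over probes detected on all arrays (-0.48, adjusted p = 0.0475) and with only probes above background on all arrays (adjusted p = 0.0407). The dimmer probe, not well above background on either knockout array at 24 h, was at least 1.51-fold lower in knockout than in wildtype there (adjusted p = 0.0489 with each probe tested on its own). Spike-in rescaling left the Siglecf differences at -0.88 untreated, 0.44 at 3 h and -0.38 at 24 h.

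The genotype difference in the 3 h response of Siglecf did not pass the threshold, and its size was as follows. Knockout minus wildtype in that response was 1.07 ± 0.15 (95% interval 0.73 to 1.41, limma adjusted p = 0.0665), with changes of 1.36 and 1.23 in the knockout mice and 0.37 and 0.08 in the wildtype mice. The dimmer probe gave the same value, 1.07 ± 0.28 (adjusted p = 0.182). The call was made with the deposited value table (adjusted p = 0.044), with normexp correction (1.00, adjusted p = 0.0209) and with only probes above background on all arrays (adjusted p = 0.0309). It was not made after spike-in rescaling (1.32, adjusted p = 0.0748) or with the mouse as a replicate block (1.07, adjusted p = 0.131). Without knockout 3 h replicate 2 the value was 1.05. No member passed in the genotype difference of the 3 h response, against 0.0348% of all genes, nor in that of the 24 h response, against 0.326%. In each, 1 member had an unadjusted p under 0.05 in limma. So had 2856 of 22976 genes for the 3 h response and 3365 of 22974 for the 24 h response.

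Markers of cells that carry SiglecF, both lists with Siglecf among them, are given beside this difference. Of 9 markers of GM-CSF-dependent alveolar macrophages, 3 were lower in untreated knockout cells and none higher (median -0.79, against 0.04 over all genes): Siglecf itself, Fabp4 at -1.59 ± 0.17, a fatty acid-binding protein gene, and Pparg at -0.79, the nuclear receptor that directs alveolar macrophage identity. The log2 of the list's summed signal was 4.54 to 4.71 in untreated knockout and 5.19 to 5.39 in untreated wildtype cells. Of 8 eosinophil markers, 4 were above background on both arrays of every group, and Epx and Prg3, the defining granule genes, were above background on none, with a summed log2 signal of -0.57 to -0.33 in untreated knockout and 0.09 to 0.29 in untreated wildtype cells. Of the 4 measured, Ccr3, the eotaxin receptor, and Siglecf were lower in untreated knockout (-0.85 ± 0.17 and -0.79 ± 0.10), and Ear6, an eosinophil ribonuclease gene, was higher (0.51 ± 0.08). Among neutrophil markers 1 of 9 was lower in untreated knockout (median -0.91, against 0.04 over all genes). Of all genes, 6.84% were called in either direction in this comparison. Among dendritic cell markers, H2-Ab1 and Kmo were higher in untreated knockout (2.37 ± 0.41 and 2.03 ± 0.20) and Itgax was lower (-1.34 ± 0.26). The other measured genes of that list did not pass. The part of all these markers in the Siglecf difference was not tested, and the spike-in slopes above differ in the same comparison.

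For the other members the genotype differences did not pass, and their intervals bound them. Siglec1 in knockout minus wildtype was 0.29 (-0.06 to 0.64) untreated, 0.48 (0.13 to 0.83) at 3 h and -0.08 (-0.43 to 0.27) at 24 h, and the 3 h value passed after spike-in rescaling (0.72, adjusted p = 0.0387) and without knockout 3 h replicate 2 (0.66, adjusted p = 0.038). Siglece was 0.30 (0.08 to 0.51), 0.21 (-0.01 to 0.42) and 0.25 (0.04 to 0.46) at the 3 times, with limma adjusted p = 0.0954, 0.217 and 0.175, and knockout arrays read above wildtype arrays at each time. The untreated Siglece value passed with normexp correction (0.33, adjusted p = 0.0379), and after spike-in rescaling the values at the 3 times were 0.07, -0.04 and 0.11. Cd33 was -0.17 (-0.69 to 0.35), 0.25 (-0.27 to 0.78) and -0.51 (-1.03 to 0.01), and Cd22 was -0.08 (-0.29 to 0.14), 0.05 (-0.17 to 0.26) and 0.14 (-0.08 to 0.35). Siglecg was 0.04 (-0.26 to 0.33), -0.01 (-0.30 to 0.28) and -0.18 (-0.47 to 0.12), and its untreated value passed after spike-in rescaling (0.57, adjusted p = 0.0316). For Siglech the 3 h difference was 0.45 (0.21 to 0.69, limma adjusted p = 0.0653), which passed without knockout 3 h replicate 2 (0.57, adjusted p = 0.0226), with normexp correction and with the stricter filter, and was 0.05 after spike-in rescaling.

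Averaged over the 3 samples of each mouse, no member passed between knockout and wildtype in limma, and neither did any of 22658 genes (0%), Commd1 included (-2.99, adjusted p = 0.127). At an unadjusted p under 0.05 there were 2 members, Siglecf at -0.32 and Siglece at 0.25, and 5531 genes.

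**Figure D4:**
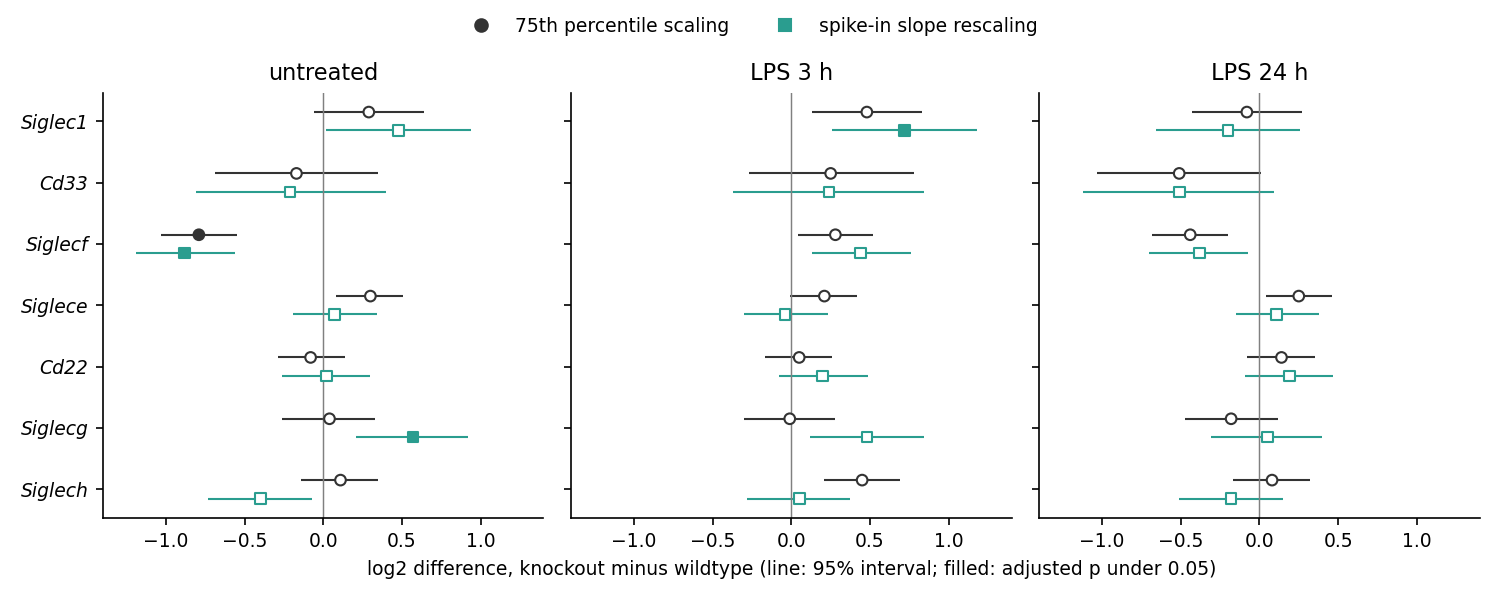
Knockout minus wildtype log2 difference of each Siglec gene in untreated cells and after 3 h and 24 h of LPS, for the brighter probe. Black circles use the 75th percentile scaling, green squares signals rescaled by each array's spike-in slope, lines are 95% intervals and filled symbols have a limma adjusted p under 0.05. Siglecf in untreated cells lies at -0.79 and -0.88 on the 2 scales, whereas Siglech and Siglecg move across 0 or away from it with the rescaling.

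Across the 12 arrays the members formed opposing patterns, given here as descriptions over points that share 3 slides. Each gene is represented by its brighter or only probe. The second Cd22 probe, which moved the other way at 3 h, did not enter, so the Cd22 values hold for the brighter probe. The Siglech values likewise rest on the probe with the repeated stretch. Cd33 and Siglecf had a Pearson r of 0.96, Siglec1 and Cd22 of 0.92, and Cd33 and Cd22 of -0.98. The genes most like Siglec1 among 17822 others were Gpr55, a lipid receptor gene, Gm5150 and Il12rb1, a receptor chain for interleukin-12 (r = 0.993, 0.992 and 0.99). Those most like Siglecf were Ets1, a transcription factor gene, and Hmgcs1 and Insig1, which act in cholesterol synthesis and its feedback (r = 0.994, 0.99 and 0.986). Those most like Cd33 were Zdhhc2, Abcb1a and Ctnna1 (r = 0.993, 0.99 and 0.989), and those most like Cd22 were Plin2, a lipid droplet protein gene, Moap1 and Ddit3, a stress transcription factor gene (r = 0.991, 0.991 and 0.99). For Siglece they were Klhdc7a, Anapc2 and Gm10318 (r = 0.989, 0.987 and 0.981), for Siglech Dnajc5, Slc10a1 and Tdgf1 (0.981, 0.963 and 0.947), and for Siglecg Alk, Eif3d and Dio3 (0.887, 0.84 and 0.814).

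Genes of sialic acid metabolism, which supply or trim the ligands of Siglecs, were mostly lower after LPS. Of 9 genes listed for sialic acid synthesis, activation and turnover, 7 were lower at 3 h in knockout and 7 in wildtype, and at 24 h 8 were lower in knockout (median -0.76, against -0.07 over all genes) and 7 in wildtype (median -0.56, against -0.04). None was higher at either time. Of all genes, 25.7% were lower at 3 h and 31.5% at 24 h in knockout, and 23.4% and 26.4% in wildtype. Nans, the sialic acid synthase gene, passed at neither time in either genotype (-0.04 ± 0.16 in knockout and -0.25 ± 0.16 in wildtype at 24 h). The wildtype count at 24 h was 4 without wildtype untreated replicate 2 or wildtype 24 h replicate 1. Npl, which cleaves free sialic acid, changed at 24 h by -3.07 ± 0.12 in knockout and -2.21 ± 0.12 in wildtype. Cmah, which converts sialic acid to its glycolyl form, a form that several mouse Siglecs prefer, changed by -3.00 ± 0.19 in knockout, where 1 of 2 arrays at 24 h was above background, and by -2.56 ± 0.19 in wildtype. Siae, an enzyme that removes acetyl groups from sialic acid, changed by -0.99 in knockout and -0.76 in wildtype.

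Sialyltransferases, which attach sialic acid in the linkages that each Siglec reads, split in direction. Of 15 measured, 5 were higher and 7 lower at 24 h in knockout (median -0.39, or -0.18 with members below background at their bounds) and 5 higher and 6 lower in wildtype (median -0.09). Among all genes, 26.0% were higher and 31.5% lower in knockout, and 23.6% higher and 26.4% lower in wildtype. St6gal1, which makes the linkage bound by CD22, changed by -3.44 in knockout and -3.13 in wildtype at 24 h, in the samples where Cd22 itself was higher. St8sia4 changed by -2.18 in knockout and -1.72 in wildtype, while St8sia5 was higher by 3.45 in knockout and 2.52 in wildtype. St3gal6 was higher by 4.72 ± 0.52 in knockout, where 1 of 2 untreated arrays was above background, and by 1.95 ± 0.52 in wildtype. All 3 measured sialidases, which remove sialic acid, were higher at 24 h in knockout and 2 of 3 in wildtype, Neu1 by 0.56 in knockout and 0.47 in wildtype and Neu3 by 0.59 in knockout and 0.53 in wildtype.

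The calls among signalling partners lay to the higher side, and those among protein ligands on both sides. Of 14 partners, 8 were higher and none lower at 24 h in knockout (median 0.93) and 9 higher and none lower in wildtype (median 1.04), against 26.0% and 23.6% of all genes higher, and 6 and 5 partners did not pass. Socs3, the cytokine feedback inhibitor, was higher by 2.74 in knockout and 4.08 in wildtype. Ptpn6, the phosphatase recruited by inhibitory Siglecs and named after its values were seen, was higher by 1.13 in knockout and 1.10 in wildtype. Of 11 protein ligands and partners on the same membrane, 4 were higher and 2 lower at 24 h in knockout and likewise 4 and 2 in wildtype, with 5 not passing in each and 31.5% and 26.4% of all genes lower. Spn, the sialylated mucin CD43 and a known ligand of Siglec1, changed by -4.56 ± 0.12 in knockout and -3.70 ± 0.12 in wildtype, and Cd24a, the partner of Siglecg, by -3.95 ± 0.26 in knockout and -3.92 ± 0.26 in wildtype. Cd52, a small glycoprotein that can bind Siglecs, was higher by 2.20 in knockout and 2.06 in wildtype.

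**Figure D5:**
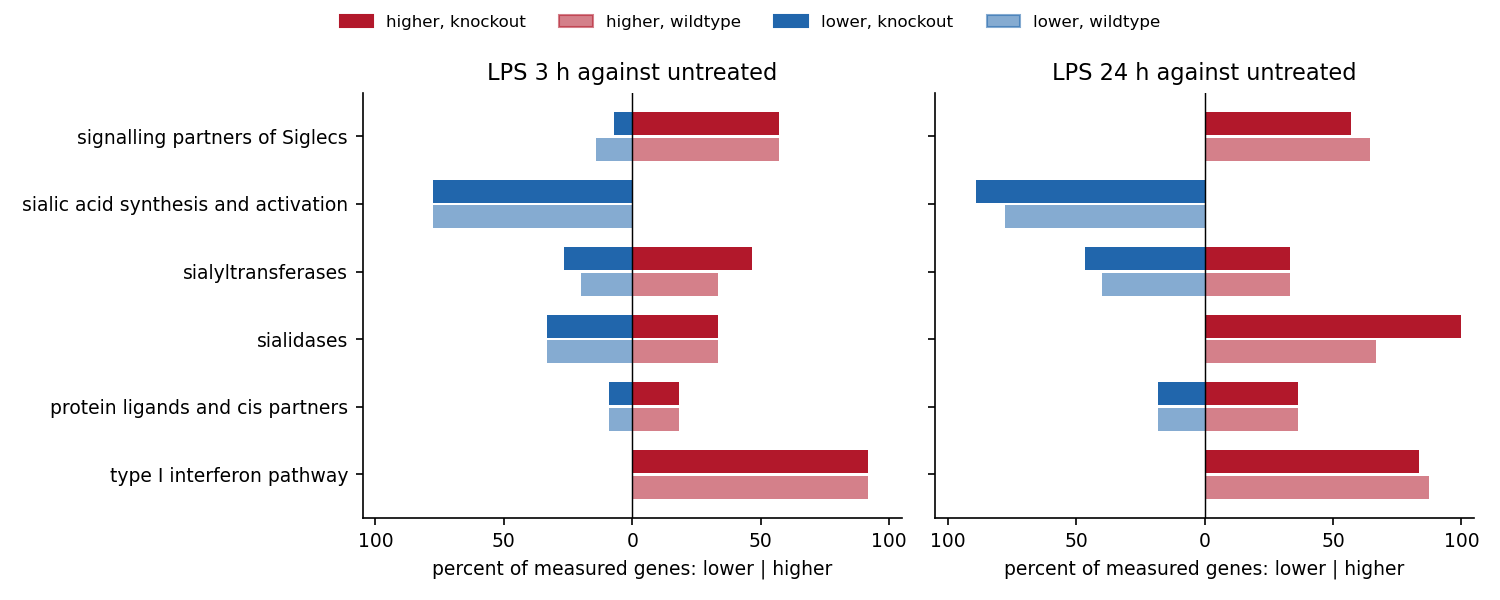
Share of the measured genes of each list that were higher (red, right) or lower (blue, left) after 3 h and 24 h of LPS at a limma adjusted p under 0.05, in percent. Dark bars above are knockout and pale bars below are wildtype. The sialic acid synthesis list, which also holds turnover genes such as Npl, has bars to the left only. At 24 h these are 8 of 9 genes in knockout and 7 of 9 in wildtype. The interferon pathway has bars to the right only.

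Between genotypes in untreated cells, the interferon pathway held the most calls among these lists. There 9 of its 24 genes were higher in knockout and none lower, against 6.84% of all genes called in either direction (median 0.55, against 0.04 over all genes, or 0.50 with Ifnb1, below background on all 4 arrays, set to no difference), among them Ifit1 at 1.48 ± 0.17 and Mx1 at 1.28 ± 0.13, both antiviral effectors. That count was 3 without wildtype untreated replicate 2, 5 without knockout untreated replicate 1 and 0 when only the untreated groups were fitted. Of the signalling partners, Socs3 and Fgr were higher in untreated knockout cells (2.03 ± 0.23 and 1.24 ± 0.24), and of the sialyltransferases, St3gal6 was lower and St6gal1 higher (-2.24 ± 0.52 and 0.52 ± 0.12). The sialyltransferase calls were lost without either wildtype untreated replicate or knockout untreated replicate 1, and leaving out any 1 of those 3 arrays left 1 partner called. Spn was higher in knockout in untreated cells and at 3 h (0.58 ± 0.12 and 0.59 ± 0.12, limma adjusted p = 0.0287 and 0.0497). No gene listed for sialic acid synthesis, activation and turnover passed in untreated cells. Of that list, Npl was lower in knockout at 24 h (-0.84 ± 0.12, limma adjusted p = 0.0214), a call lost without wildtype 24 h replicate 1 and after spike-in rescaling.

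Of the remaining Siglec genes of the mouse, Mag, the myelin Siglec, was higher at 24 h by 1.04 ± 0.12 in knockout and 1.15 ± 0.12 in wildtype (limma adjusted p = 0.000152 and 0.000126). Its 3 h change was -0.35 ± 0.12 in knockout (adjusted p = 0.044) and -0.18 ± 0.12 in wildtype (adjusted p = 0.262). Siglec15 was well above background on 3 of 12 arrays.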

How the data were processed

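Processed intensity per spot, background-corrected and detrended across the array surface per the file headers, came from Agilent Feature Extraction 10.7.3.1, per the submitters' processing notes. The authors also deposited a table on the log2 scale. On each array, 99.5% or more of its values equal the scanner's log2 signal minus a constant within 0.01, with column medians of -4.50 to -4.30, so it is scaled per array and not centred per gene.

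Control and outlier spots (132 to 589 per array) were left out, and spots of a probe were averaged. The array's 75th percentile was subtracted. A probe entered if well above background on both arrays of 1 group (28426 probes). Each gene was represented by its brightest probe on average. Of 39429 probes, 78.6% were matched to RefSeq names. All 12 arrays were fitted in limma 3.58.1 (R 4.3.3; statmod 1.5.0) with 1 mean per group, tests two-sided. Tables and figures used Python 3.11.15, pandas 2.3.3, scipy 1.17.1 and matplotlib 3.10.9. The steps were tested on simulated data.

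Samples of 1 mouse are paired, as the labels give the mouse. Residuals of the same mouse correlated at r = 0.12 to 0.36. Each mouse also kept the same array place on every slide, so mouse and place cannot be told apart in these correlations. The precision is limited by the number of arrays.

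The members and gene lists were chosen with earlier results of these data known. Named are all members by every probe, up to 4 genes per list by size of change and the 3 genes most like each member. Coordinates are mm9, as the files give them, except upstream sequences. Alternatives were background correction, scaling, filters, probe choice, samples fitted, left-out replicates and the mouse as a block. Rescaling by spike-in slopes was added after seeing the data.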

Additional observations from a re-analysis of the deposited data

How the results depend on the processing

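Among 1414 values of single Siglec genes under another setting, 1355 kept their direction and their side of the threshold, 27 passed only there, 28 lost their call and 4 turned round. The 4 were Siglech at 24 h in wildtype after spike-in rescaling (-0.75 against untreated and -0.68 against 3 h), Siglech at 3 h in knockout under quantile normalization (-0.01) and Cd22 at 3 h in knockout as the mean of its probes (0.10), and their cause was not tested. Members called at 3 h numbered 2 in knockout after spike-in rescaling, without the filter and with only the groups compared, and 1 in wildtype with the mean over probes. Between genotypes in untreated cells they numbered 2 with normexp, 2 after spike-in rescaling and 0 with only the groups compared. At 3 h 1 was called with normexp, spike-in rescaling or the stricter filter, at 24 h 1 with the percentile over detected probes, the stricter filter or the mean over probes, and for the 3 h response 1 with normexp, the deposited table or the stricter filter.

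Counts over all genes moved in the genotype comparisons. In untreated cells 2566 genes were called with normexp, 6384 after spike-in rescaling, 453 without the filter and 0 with only the groups compared, against 1571. At 3 h they were 1739 with normexp, 810 with the deposited table, 5305 after spike-in rescaling, 1468 with the stricter filter, and 0 without the filter and with only the groups compared, against 387. At 24 h they were 840 with the percentile over detected probes, 947 with the stricter filter, 134 after spike-in rescaling, 103 without the filter and 0 with only the groups compared, against 549. For the genotype difference of the 3 h response they were 106, 40, 19, 77, 0 and 0 with normexp, the deposited table, spike-in rescaling, the stricter filter, no filter and only the groups compared, against 8. For that of the 24 h response they were 238, 182, 243, 133, 0 and 2 with normexp, the deposited table, the stricter filter, each probe on its own, no filter and only the groups compared, against 75. For mouse means 287 genes were called with normexp, against 0. With the mouse as a replicate block, the 3 h response had 1 gene as a fixed term and 21 as a random term, the 24 h response had 151 and 204, and no call on a member changed.

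Leaving out 1 replicate, members called numbered 2 to 3 at 3 h, 5 to 5 at 24 h and 5 to 6 at 24 h against 3 h in knockout, and 1 to 2, 5 to 5 and 5 to 5 in wildtype. Between genotypes they numbered 0 to 1 untreated, 0 to 2 at 3 h, 0 to 0 at 24 h, 0 to 1 for the 3 h response, and 0 to 0 for the 24 h response and for mouse means. Genes called numbered 10048 to 11227, 10972 to 12374 and 12026 to 12687 in knockout, 7919 to 8931, 8720 to 9678 and 9269 to 9608 in wildtype, and between genotypes 152 to 1301, 22 to 2929 and 60 to 791 at the 3 times, 0 to 371 and 4 to 239 for the 2 responses and 0 to 0 for mouse means.

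The median change of all genes at 24 h was 0.22 in knockout and 0.18 in wildtype with normexp, against -0.07 and -0.04, and higher genes made up 64.7% and 64.5% of calls, against 45.2% and 47.2%. At 24 h against 3 h that share was 57.3% in knockout and 59.9% in wildtype with normexp, against 44.7% and 48.9%. At 3 h it was 38.8% in knockout and 39.0% in wildtype with the percentile over detected probes, against 50.7% and 49.9%. Spike-in rescaling put the median of all genes in knockout minus wildtype at 0.18 untreated and 0.16 at 3 h, against 0.04 and 0.03, and the higher share at 65.0% untreated, against 55.1%. At 3 h between genotypes the higher share was 44.9% with the percentile over detected probes, against 63.3%, and at 24 h 48.4% with normexp and 50.7% after spike-in rescaling, against 30.1%. For the genotype difference of the 3 h response 11 of 19 genes were higher after spike-in rescaling, against 6 of 8, and for the 24 h response the share was 62.6%, 61.0% and 26.4% with normexp, the deposited table and spike-in rescaling, against 46.7%. Dim probes limit Siglecg, the second Siglech probe and the second Siglecf probe at 24 h in knockout.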
